A study of Sus scrofa domesticus with 4 samples.

Results

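A set of 7 genes of uterine epithelium and its secretions was followed in cultured pig myometrium: EPCAM, KRT8, MUC4, RBP4, SLPI, LCN2 and UABP-2. The genes were chosen by their roles and with their levels and log2 ratios on these same arrays already known, and every probe for a RefSeq transcript of theirs was taken. They are 7 of the 3029 genes that could be named, with 34 of the 43603 probes. Explants treated with orexin A (OXA) were compared with explants of the same tissue that received no OXA. Tissue came from the middle of the uterine horns of 4 gilts (Large White x Polish Landrace, 7 to 8 months old, days 15 to 16 of gestation) and was cultured for 24 h after 2 h of preincubation. The dose is 10 nM by the sample labels and 10 µM by the design text. Each of 4 two-colour Agilent arrays carried OXA-treated RNA in 1 dye and non-treated RNA in the other, with Cy5 for OXA on arrays 1 and 3 by the sample labels, and Cy3 for it on arrays 2 and 4. All groups come from pregnant animals, and whether endometrium had been stripped off is not given in the sources used here.

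The uterine lumen and its glands are lined by a simple epithelium, while the myometrium beneath is smooth muscle with vessels and connective tissue. In the pig, where the conceptus attaches without invading, this epithelium feeds the embryo through a secreted mixture called histotroph, which carries retinol-binding protein, the iron protein uteroferrin and protease inhibitors. EPCAM (an adhesion molecule), KRT8 (a keratin of simple epithelia) and MUC4 (a membrane mucin) belong to the cells themselves. RBP4 (the retinol carrier), SLPI (secretory leukocyte protease inhibitor), UABP-2 (uteroferrin-associated basic protein 2, a serpin) and LCN2 (lipocalin 2, which binds bacterial siderophores) are secreted. EPCAM is also found on trophoblast, KRT8 on mesothelium and trophoblast, and SLPI and LCN2 in neutrophils.

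The labelled tissue was first set against its own markers. Of the smooth muscle genes listed, 8 were measured, and all 8 were well above background in all 8 channels. The smooth muscle actin ACTA2 had signals between 64186 and 218616 in the OXA channels, against 61375 to 238857 in the non-treated channels. The arrays did not run alike: across tested probes, the log2 ratios of arrays 1 and 4 correlated at r = 0.62, those of arrays 1 and 2 at r = -0.59, and those of arrays 2 and 4, which share a dye orientation, at r = -0.38. The labelling protocol words the dyes otherwise, with OXA in Cy5 throughout. Directions below follow the sample labels, and the protocol's reading, which turns the sign of every ratio on arrays 2 and 4, is given for the members and beside each count of list means. Depth is not counted on an array, and the number of arrays limits the precision.

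EPCAM, first of the genes of the epithelial cell itself, is covered by 16 probes. Its brightest probe had processed signals (linear, after the scanner's background subtraction and dye normalization) of 13.2, 3681, 215 and 476 in the OXA channels of arrays 1 to 4. The non-treated channels had 84.8, 800.3, 539 and 130.2. The OXA channel was therefore the dimmer on arrays 1 and 3 and the brighter on arrays 2 and 4. The deposited log2 ratios of OXA over non-treated were -2.68, 2.20, -1.32 and 1.87. On array 1 the OXA channel was not well above background, so that ratio is only a limit, at least 1.88-fold lower with OXA. Over the 3 arrays measured in both channels the mean was 0.92 ± 1.95 (SD, n = 3), and with the array 1 ratio taken as deposited it was 0.02. In that channel 0 of the 16 EPCAM probes were well above background, against 13 of 16 in the non-treated channel. All 16 probes had the same signs as the brightest: from -3.23 to -0.36 on array 1, 1.62 to 2.48 on array 2, -1.99 to -1.08 on array 3 and 1.48 to 2.68 on array 4.

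KRT8 gave 38.2, 1351, 149 and 515 in the OXA channels and 31.1, 525, 278 and 121 in the non-treated channels. Neither channel of array 1 was well above background, so array 1 gives no ratio for it. On arrays 2 to 4 the log2 ratios were 1.36, -0.90 and 2.09, with the OXA channel brighter on arrays 2 and 4. Over these 3 arrays the mean was 0.85 ± 1.56 (SD, n = 3). A second tested probe had 1.21, -0.95 and 2.22 on these arrays, the same signs.

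MUC4 followed the same order, with 13.7, 1543, 68.4 and 226 in the OXA channels, against 46.5, 370.3, 124 and 49.7 in the non-treated channels. It too was not well above background in either channel of array 1. The log2 ratios on arrays 2 to 4 were 2.06, -0.86 and 2.18, a mean of 1.13 ± 1.72 (SD, n = 3). Of the 34 member probes, 32 were tested, and the 2 that were too dim belonged to MUC4 and KRT8. The untested MUC4 probe was not well above background in any channel, and the untested KRT8 probe reached that level in the OXA channel of array 2 alone.

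**Figure D1:**
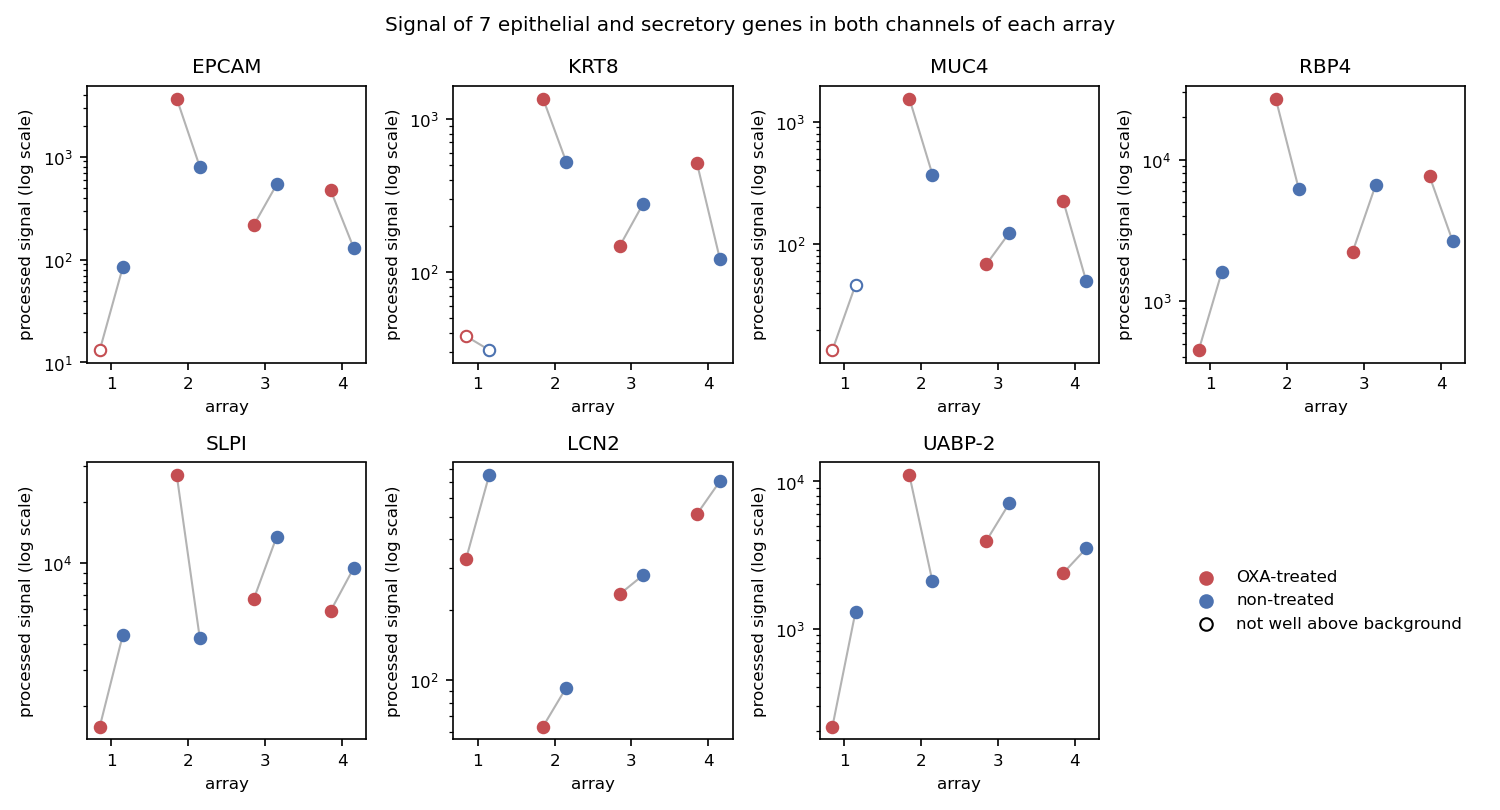
Processed signal (log axis) of the brightest probe of each gene in the OXA-treated (red, left) and non-treated (blue, right) channel of each array, with grey lines joining the channels of an array. Open symbols were not well above background. The 6 genes other than LCN2 have their highest signal in the OXA channel of array 2, while LCN2 has its lowest there.

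Of the secreted products, RBP4 had the signs of EPCAM on every array. Its brightest probe had 451, 27070.2, 2230.4 and 7659.7 in the OXA channels and 1613, 6224, 6630.3 and 2665 in the non-treated channels. All 8 channels were well above background, and the log2 ratios were -1.84, 2.12, -1.57 and 1.52, with a mean of 0.06 ± 2.05 (SD, n = 4). The other 2 probes had smaller ratios, and they disagreed on array 1, where they gave -1.15 and 0.11.

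SLPI and UABP-2 parted from the cell markers on array 4. SLPI had 1584, 27068.5, 6653 and 5832 in the OXA channels, against 4458, 4297, 13513 and 9468 in the non-treated channels. Its log2 ratios of -1.49, 2.66, -1.02 and -0.70 averaged -0.14 ± 1.89 (SD, n = 4). All 7 SLPI probes had these signs, and their array 4 ratios lay between -0.97 and -0.56, where every EPCAM probe was at 1.48 or above. UABP-2, with a lone probe, had 216, 11057, 3946 and 2385 in the OXA channels and 1304, 2094, 7124.5 and 3513 in the non-treated channels. Its log2 ratios of -2.59, 2.40, -0.85 and -0.56 averaged -0.40 ± 2.07 (SD, n = 4). For both genes the OXA channel was thus brighter than its partner on array 2 alone.

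In its level across the arrays, LCN2 ran against the other members. It had 330.0, 63.2, 233 and 512 in the OXA channels and 753, 92.5, 281 and 709 in the non-treated channels, so both channels of array 2, where the others peaked, were its dimmest. The log2 ratios were negative on all 4 arrays, at -1.19, -0.55, -0.27 and -0.47, with a mean of -0.62 ± 0.40 (SD, n = 4). Members measured in both channels were also negative on arrays 1 and 3, as were SLPI and UABP-2 on array 4. Only on array 2 did the sign of LCN2 differ from that of every other member. A second probe gave -1.11, -0.36, -0.47 and -0.43, the array 2 value with an OXA channel not well above background. A ratio of 1 sign on all 4 arrays was found for 7.72% of tested probes, and LCN2 was the only member gene with it.

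**Figure D2:**
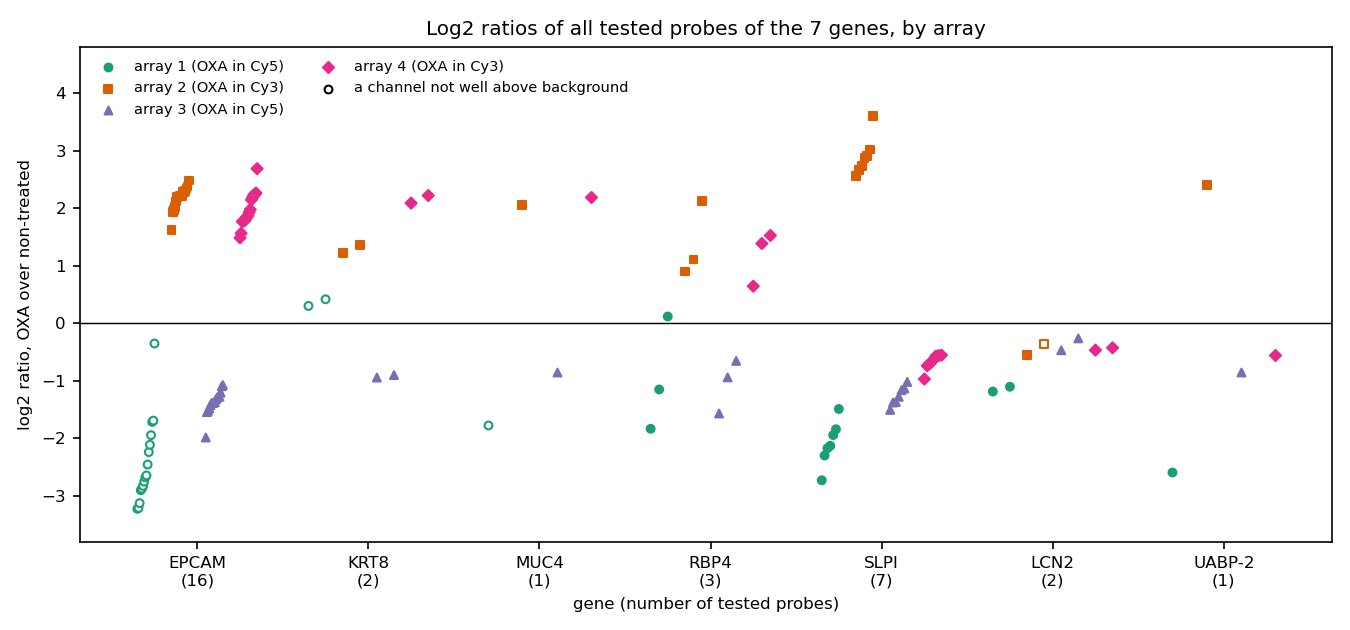
Log2 ratio of OXA over non-treated (vertical axis) for each tested probe of the 7 genes, by array. Open symbols mark a channel not well above background. The 16 EPCAM probes and the 7 SLPI probes lie close together within each array and far apart between arrays, with SLPI below 0 and EPCAM above 0 on array 4.

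Levels were then compared across channels as log2 signal relative to the 75th percentile of the channel's probes, which lay between 277 and 368 in the OXA channels and between 273 and 372 in the non-treated channels. The highest channel was OXA on array 2 for the 6 members other than LCN2. For RBP4, SLPI and UABP-2 the lowest was OXA on array 1, and the highest was above the lowest by 63.9-fold, 18.2-fold and 54.5-fold. With the dimmest channels set at the lowest signal measured above background, the span was at least 86.8-fold for EPCAM, at least 39.4-fold for KRT8 and at least 41.6-fold for MUC4. LCN2 spanned 11.1-fold, from the OXA channel of array 2 to the non-treated channel of array 1.

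The non-treated channels alone also differed. Between the 4 arrays they spanned 10.3-fold for EPCAM, at least 15.5-fold for KRT8, 7.46-fold for LCN2, 5.31-fold for UABP-2, 4.21-fold for RBP4 and 2.95-fold for SLPI. For EPCAM the order was array 2, array 3, array 4 and array 1, with log2 levels of 1.55, 0.81, -1.52 and -1.81. For SLPI it was array 3, array 4, array 2 and array 1, with 5.46, 4.67, 3.97 and 3.90, and arrays 2 and 1 stood next to each other at nearly the same level. A channel has no replicate, so neighbours in these orders have no spread to be set against. The SD of the log2 level over non-treated channels was 1.67 for EPCAM, above that of 99.1% of tested probes, and 0.73 for SLPI, above that of 85.1%. In bulk tissue, fewer epithelial cells and less RNA per cell cannot be told apart.

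Among the 6 members other than LCN2, levels over the 8 channels correlated at r = 0.69 to 0.99 over 15 pairs, the highest between EPCAM and RBP4 and the lowest between KRT8 and SLPI. SLPI and UABP-2 correlated at r = 0.96. LCN2 had r between -0.81 and -0.48 with the others. Dim channels entered these correlations as measured: the OXA channel of array 1 for EPCAM, and both channels of array 1 for KRT8 and MUC4. RBP4, above background in every channel, correlated at r = 0.85 with both SLPI and UABP-2, which were above it too. These 8 points share arrays in pairs and share 1 slide, and they describe these channels.

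The design sets OXA-treated against non-treated myometrium. The members were picked with these ratios known, so the counts of member probes from the fits over all probes are printed beside their background and nothing is read from them. The median of the 7 gene means was 0.06 over arrays measured in both channels, and 0.02 with all deposited ratios, beside -0.02 over all tested probes. Over members measured in both channels the medians were -1.67 on array 1 (4 genes), and 2.12, -0.90 and 1.52 on arrays 2 to 4 (7 genes each). OXA and non-treated levels overlapped for all 7 genes, and 0.687% of tested probes had no overlap. In the fit across all 19500 tested probes limma called 0 (0%), and 0 of the 32 member probes. At an unadjusted p under 0.05 it had 234 probes (1.20%), among them 1 member probe, of EPCAM. With dim channels included, the SD of the ratio over arrays exceeded that of 98.7% to 99.6% of tested probes for EPCAM, MUC4, RBP4, SLPI and UABP-2, of 93.4% for KRT8 and of 28.8% for LCN2.

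The sign pattern of EPCAM, RBP4, MUC4 and KRT8 followed the dyes. As OXA changed dye between the arrays, the Cy3 channel was the brighter of the pair on all 4 arrays for RBP4 and, with array 1 as a limit, for EPCAM. For MUC4 and KRT8 it was the brighter on the 3 arrays that measured them. By the deposited ratios, dim channels included, this held on all 4 arrays for 19 of the 32 tested member probes, 16 of EPCAM, 2 of RBP4 and 1 of MUC4, and for 4.23% of all tested probes. A ratio below 0 on arrays 1 and 3 and above 0 on array 2, whatever array 4 gave, was found for 27 of the 32 (the 7 of SLPI and the 1 of UABP-2 added) and for 22.0% of all tested probes. Read with OXA in Cy5 throughout, as the labelling protocol has it, the mean log2 ratios over arrays 2 to 4 were -1.80 ± 0.44 for EPCAM, -1.70 ± 0.73 for MUC4 and -1.45 ± 0.60 for KRT8 (SD, n = 3). Over all 4 arrays RBP4 had -1.76 ± 0.28, SLPI -1.12 ± 1.39, UABP-2 -1.32 ± 1.48 and LCN2 -0.11 ± 0.81 (SD, n = 4). limma then called 0 of 19500 probes (0%) and 0 member probes, with 621 probes (3.18%) and 27 of 32 member probes at an unadjusted p under 0.05. The 27 were 16 of EPCAM, 5 of SLPI, 2 of KRT8, 2 of RBP4, 1 of MUC4 and 1 of UABP-2. Probes of 1 gene repeat the same measurement, and the fit included the dim array 1 ratios of EPCAM, KRT8 and MUC4. OXA and dye cannot be told apart under that reading.

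The calls turned on array 2. Without it limma called 1093 probes (5.61%), among them 5 of SLPI and the 1 of UABP-2, and the member median (deposited ratios) was -0.64. With array 2 gone, array 4 is the lone array with OXA in Cy3, and it is assumed to vary as arrays 1 and 3 do. That fit had 1 residual degree of freedom and used 1 variance pooled over all probes. Its calls therefore do not rest on the spread of each probe. With the direction of array 2 turned, the means were -1.47 for SLPI and -1.60 for UABP-2. That fit has OXA in Cy5 on arrays 1 to 3, so array 4 is again the lone array with OXA in Cy3. The dye term fits array 4 exactly, and the residual spread comes from arrays 1 to 3 only. limma called 0 probes then (0%), with 5263 (27.0%) at an unadjusted p under 0.05, 9 of them member probes.

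**Figure D3:**
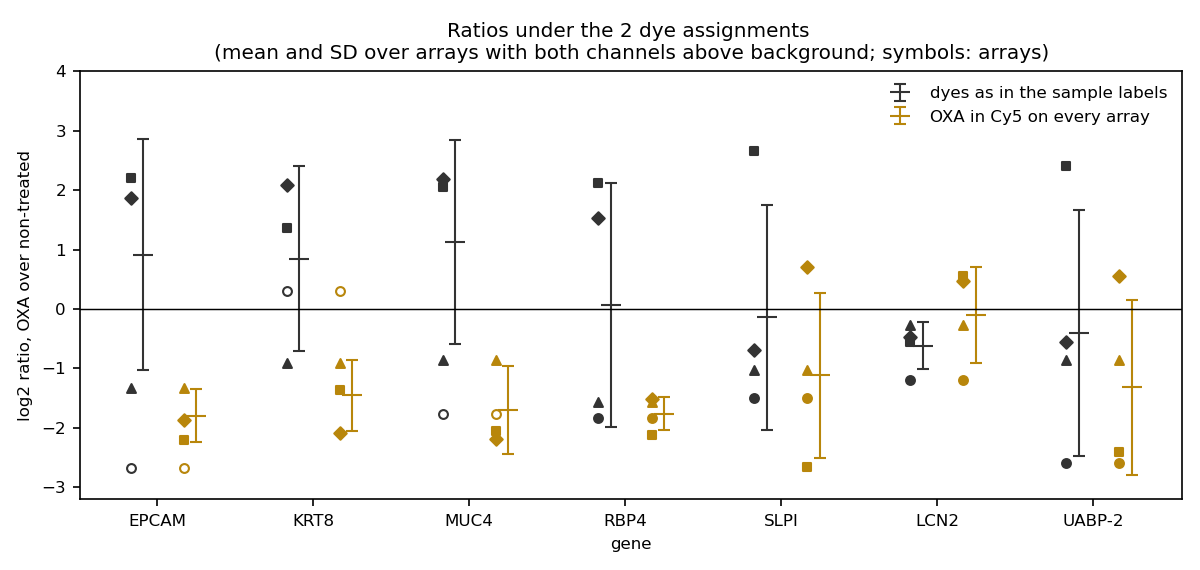
Log2 ratios of the 7 genes by array (symbols as in the plot of probe ratios, open where a channel was not well above background), with mean and SD over the arrays that measured both channels (3 for EPCAM, KRT8 and MUC4, 4 for the others), for the dyes as in the sample labels (dark, left) and for OXA in Cy5 on every array (gold, right). EPCAM, MUC4 and RBP4 spread to both sides of 0 in the first and lie below 0 in the second, while LCN2 does the reverse.

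Other epithelial genes were taken from a list of 25, of which 7 were measured. CDH1, the epithelial cadherin, had log2 ratios of -1.15, 2.06, -1.18 and 1.53, and CLDN3, a tight junction claudin, had -1.37, 2.33, -2.03 and 1.17. CLDN3 had the signs of EPCAM on every array, and CDH1 on arrays 2 to 4, since on array 1 it was not measured in both channels. CLDN7, a further claudin, had 0.42, 1.69, -0.85 and 1.32, and was well above background on 3 of 4 arrays in either group. WFDC2, a secreted whey acidic protein of glands, had 0.44, 0.16, -0.92 and 1.59. Over genes measured in both channels the list medians were -0.65 on array 1 (3 genes), 1.55 and -0.94 on arrays 2 and 3 (6 genes each) and 1.33 on array 4 (7 genes). By the sample labels 6 of 7 genes had positive means, with OXA in Cy5 throughout 6 of 7 had negative ones, and limma called 0 of 7 (background 0%). The summed level of the list, relative to the 75th percentile, ran from 3.45 to 25.7 in the OXA channels, against 3.82 to 8.94 in the non-treated channels.

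Of 20 genes for uterine secretion and its regulation, 10 were measured. ACP5, which encodes uteroferrin, had 3320.0, 24688, 3325 and 7645 in the OXA channels and 3908, 2522, 8972 and 6740.1 in the non-treated channels. Its log2 ratios were -0.24, 3.29, -1.43 and 0.18, with the large values on arrays 2 and 3. SPP1 (osteopontin) had 0.09, 0.38, -0.06 and 0.33, STC1 (stanniocalcin) -0.60, -0.24, 0.94 and 1.22, and SLC5A1 (a glucose transporter, dim on arrays 1 and 2) 0.80, -1.21, 0.19 and -0.06. The list medians over genes measured in both channels were 0.09, 0.01, -0.04 and 0.71, from 7, 8, 9 and 10 genes. By the sample labels 8 of 10 means were positive, with OXA in Cy5 throughout 8 of 10 were negative, and 0 were called (background 0%). On arrays 2 and 3 ACP5 had the signs of EPCAM, KRT8, MUC4, RBP4, SLPI and UABP-2, while SPP1, STC1 and SLC5A1 had other signs or smaller ratios.

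Of 16 genes of retinoid handling, 3 were measured, and 0 were called. STRA6, the RBP4 receptor, had 0.30, -0.21, -0.13 and 0.46, and CRABP1, a cellular retinoic acid carrier, had 0.26, -0.47, -0.11 and -0.07. Both had signs opposite to those of RBP4 on arrays 1 and 2.

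Acute phase and antimicrobial genes, the company of LCN2 in inflamed tissue, had 7 measured of 19 listed, with 5 of 7 means negative under either reading of the dyes and 0 called. CFB, complement factor B, was negative on all 4 arrays by the sample labels, like LCN2, at -0.29, -0.46, -1.04 and -0.45, and averaged -0.10 ± 0.71 with OXA in Cy5 throughout (SD, n = 4). C3 had 0.17, -0.15, -1.41 and -0.43, SAA3, a serum amyloid A made outside the liver, 1.09, -0.00, -1.22 and -0.34, and IL1B -2.58, 0.19, 1.28 and 1.27. The list medians of -0.29, -0.15, -0.51 and -0.34 were below 0 on each array by the sample labels.

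Markers of other cells that could carry these transcripts were read beside them. Neutrophil genes had 3 measured of 15: S100A8 had log2 ratios of 1.58, 1.69, -2.89 and 1.29, S100A12 (dim on array 1) -0.14, 0.03, -1.09 and 0.48, and MMP9 1.29, -0.20, 1.08 and 1.00. The summed level of the 3 was 8.36 to 21.8 in the OXA channels, against 3.50 to 28.8 in the non-treated channels. The part of neutrophils in the values of SLPI and LCN2 was not tested.

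Of 19 conceptus markers 10 were named on the array and 4 were measured. IFNG, which the pig conceptus secretes at this stage, CDX2 and CYP17A1 were not well above background in any channel. PAG6, a pregnancy-associated glycoprotein, and TFAP2C, a transcription factor of trophectoderm, were above it in 1 non-treated channel each, and GATA3, a further one, in 1 OXA and 2 non-treated channels. HAND1, a transcription factor of extraembryonic and mesenchymal tissue, had 119, 4199, 816 and 94.2 in the OXA channels and 80.2, 594, 8237 and 132 in the non-treated channels. Its ratios of 2.82 on array 2 and -3.34 on array 3 had the signs of the 6 members other than LCN2, and its values on arrays 1 and 4 were small. IL1B2, the conceptus form of interleukin 1 beta, had 0.62, -0.16, 0.35 and 1.53, CYP19A1 (aromatase) 0.98, 0.11, 0.05 and 0.92, and GATA2 0.42, -0.13, 0.28 and 0.26, all above background in every channel. Means were positive for 3 of 4 genes by the sample labels and negative for 3 of 4 with OXA in Cy5 throughout. The summed level of the list was 9.94 to 22.9 in the OXA channels, against 6.28 to 33.2 in the non-treated channels. Whether conceptus tissue has a part in the values of EPCAM or KRT8 was not tested.

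Of mesothelial genes, WT1 was the 1 measured, with -0.35, 0.01, 0.45 and 0.37, and UPK1B was not well above background in any channel. Smooth muscle genes had medians of -0.26, -0.14, 0.15 and -0.45, stromal genes (4 measured) -0.16, -0.24, 0.06 and -0.46, endothelial genes (5 measured) -0.42, -0.35, 0.06 and 0.54, and macrophage genes (6 to 8 measured in both channels of an array) 0.70, -0.40, 1.62 and 0.73. Smooth muscle means were negative for 7 of 8 genes by the sample labels and positive for 7 of 8 with OXA in Cy5 throughout, and macrophage means were positive for 8 of 8 under both. Each of these 4 lists had 0 genes called, as had the lymphocyte list, with NKG7 alone measured, and no blood gene was named on the array. The macrophage medians were above 0 on arrays 1 and 3, where the member medians were below 0, and below 0 on array 2, where those were above it. On array 4 both medians were above 0, at 0.73 for the macrophage genes and 1.52 for the members. The summed smooth muscle level was 1080 to 1802 in the OXA channels, against 943 to 2176 in the non-treated channels. The part of tissue makeup in the members' ratios was not tested.

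**Figure D4:**
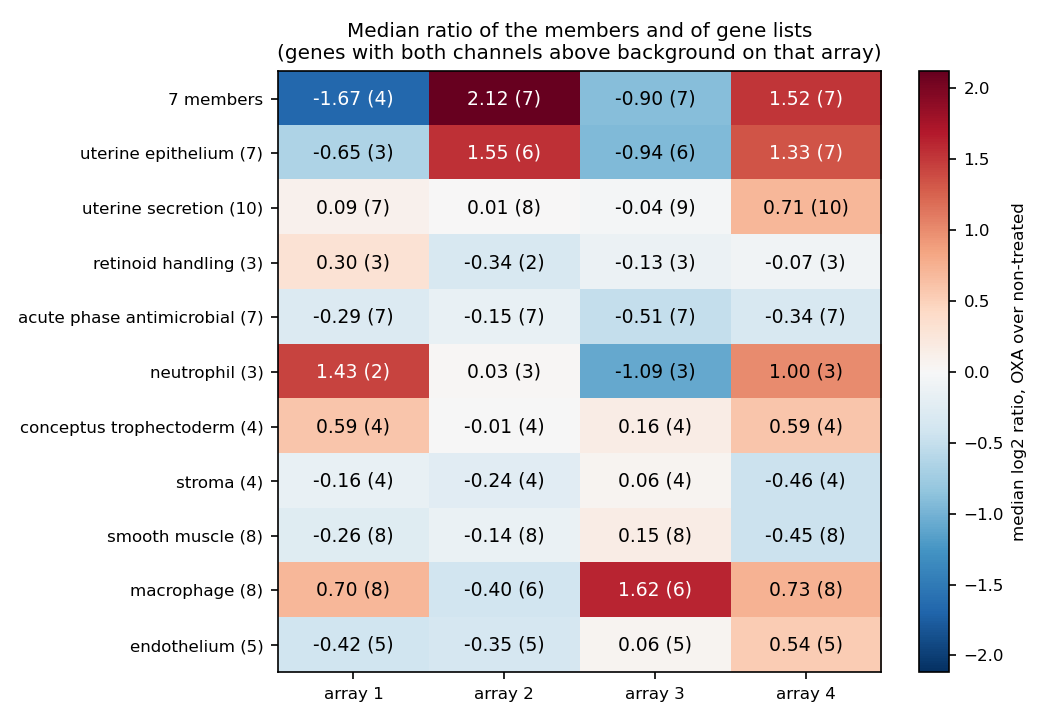
Median log2 ratio of OXA over non-treated for the 7 members and for each gene list with at least 3 tested genes, by array, over the genes with both channels well above background there (number in brackets), with colour from blue (negative) to red (positive). The members have -1.67, 2.12, -0.90 and 1.52 on arrays 1 to 4, beside -0.65, 1.55, -0.94 and 1.33 for the epithelial list.

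The genes most like the members were sought by correlation of the level over the 8 channels with the mean member profile, among 691 named genes well above background in every channel with an SD of at least 0.5. The profile itself includes the dim array 1 channels of EPCAM, KRT8 and MUC4. The 12 closest had r between 0.81 and 0.97, as a description of 8 channels that share arrays. The first were OCLN (occludin) and CLDN3, both of tight junctions, at r = 0.97. OCLN had log2 ratios of -0.42, 1.29, -0.40 and 0.33, smaller than those of CLDN3. F3, tissue factor, followed at r = 0.90 with -0.03, 0.56, -0.52 and 0.74. MT1A, a metallothionein, had 0.24, 2.18, -1.66 and -0.46, and LEF1, a transcription factor of Wnt signalling, -1.02, 1.62, -0.88 and 0.08. GBP2 and MX2, both induced by interferon, had 0.92 and 0.72 on array 2 and between -0.53 and 0.08 on the others. The other 5 were IVNS1ABP, CDH5 (of the endothelial list, r = 0.83), SLC19A2, TOB1 and DGCR8. PECAM1, also endothelial, had r = 0.90 with the profile but was no candidate, as its SD was under 0.5. VWF, CLDN5 and ENG had 0.39, 0.30 and -0.52. Of the epithelial list, CDH1, MAL2 and CLDN7 were no candidates because they were dim on array 1, and had r = 0.93, 0.92 and 0.88. WFDC2, SPINT1 and JUP of that list had 0.29, 0.17 and -0.57. Of the 12 closest genes only CLDN3 had the signs of EPCAM and RBP4 at over 2-fold on every array. Without LCN2 in the profile 11 of the 12 were shared.

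For LCN2 the closest genes were taken in the same way, a choice made after its values were seen. They were RRAGD, KIT, ADPRH, MMP2, HSD11B1 and ALOX5AP, at r = 0.92 to 0.96. MMP2, gelatinase A, had 45138, 23322, 38445 and 76698 in the OXA channels and 53959, 22871, 50449 and 73210.4 in the non-treated channels, lowest on array 2 like LCN2. HSD11B1, which regenerates cortisol, had log2 ratios of -0.53, -0.40, 0.68 and -0.66, and ALOX5AP, an activator of leukotriene synthesis, -0.23, -0.97, 0.40 and -0.25. LCN2 was the only 1 of these with a negative ratio on all 4 arrays.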

How the data were processed

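The members, lists and tests were chosen with earlier results of these data known. The authors deposited scanner files with linear signal intensity (processed and median) and, for each spot, the log10 of Cy5 divided by Cy3. Feature Extraction 10.7.3.1 made them, per the file headers. Values in the authors' table are log2 ratios. Against the scanner ratios their slope was 1 for arrays 1 and 3 but -1 for arrays 2 and 4, which makes them ratios of OXA-treated to non-treated by the sample labels, with at least 99.86% of tested probes within 0.001. Their column medians were 0.10, 0.10, -0.19 and 0.07 over all probes and 0.00, -0.05, 0.00 and 0.01 over tested probes. No other centring was found.

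RefSeq transcripts named 6700 probes through a RefSeq table (Sscrofa11.1) that served for names only. Tested probes were those well above background in 3 or more OXA channels or 3 or more non-treated channels, with a ratio on every array (19500 probes; 5 lacked a ratio). Repeated spots were averaged for 50 probes. A gene is represented by its brightest tested probe. limma 3.58.1 in R 4.3.3 fitted OXA with a dye term (2 residual degrees of freedom) and Benjamini-Hochberg adjustment at 0.05, and was tested on simulated data. Alternatives were loess of normexp-corrected median signals (offset 50), median centring, other filters, no dye term, other dye orientations, all probes of a gene and leaving out each array. After the values were seen, measured-only means, list medians and list directions under the other dye reading were added. Named are the members, the first 4 measured genes of each list (fewer for muscle, stroma, vessels and macrophages) and the 12 genes closest to the members in level; some items are not reported here. All 4 arrays share 1 slide and 1 scan. The labels speak of 4 gilts and 4 separate experiments, but leave unsaid whether an array's channels share an animal. The p-values measure the spread between these arrays.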

Additional observations from a re-analysis of the deposited data

Results flagged for a closer look

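Sets of 4 array values were checked for 1 array far from the others: the ratios and levels of the 7 members, the list medians, and the ratios of the genes most like the members or LCN2. In all, 1 array stood apart in 2 of 51 sets (Dixon's test), and no set of the members themselves was among the 2. The test's rate of 5% holds for independent sets that were not selected by their values. These sets overlap, the members were chosen with their values known, and the 2 genes below were picked for their levels in these channels. The count therefore cannot be set against 5%, and nothing is read from it. IVNS1ABP, which resembled the members in level, had a log2 ratio of 1.02 on array 2 and between -0.40 and -0.32 on the others. KIT, a receptor tyrosine kinase of mast cells that resembled LCN2 in level, had -1.27 on array 1 and between -0.08 and 0.01 on the others.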

How the results depend on the processing

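limma called 0 probes as labelled and with loess, median centring, no filter, the stricter filter, no dye term, OXA in Cy5 throughout or array 2 turned. Leaving out 1 array gave between 1 and 1093 calls, the highest without array 2, against 1, 5 and 6 without arrays 1, 3 and 4. Each fit with 1 array left out had 1 residual degree of freedom and used 1 variance pooled over all probes. In the main fit 234 probes had an unadjusted p under 0.05. The median of the 7 member means over all deposited ratios, 0.02, was 0.06 over arrays with both channels well above background (an alternative added after seeing the data), 0.07 with loess and 0.08 with all probes of a gene, between -0.64 and 0.69 with 1 array left out, -1.32 with OXA in Cy5 throughout and -1.0 with array 2 turned. Of 70 recomputed member means, 67 lay within 1 SD over arrays of the main value and 17 had another sign. The count of 67 is no measure of stability, since a mean with 1 of 4 arrays left out cannot move by 1 SD. The SDs were also wide: EPCAM went from 0.02 to -2.02 with OXA in Cy5 throughout and still lay within its SD of 2.4. The 3 beyond 1 SD all came with OXA in Cy5 throughout: KRT8 at -1.01, MUC4 at -1.72 (array 1 included) and LCN2 at -0.11. Loess with an offset of 50, which by construction shrinks the ratios of dim spots, moved EPCAM on array 1 to -0.62, MUC4 to -0.07 and KRT8 to 0.10, and EPCAM's mean to 0.42. Signal over background limits EPCAM, KRT8 and MUC4 on array 1. No paired analysis was possible because the 4 arrays form 1 group of ratios, in which each array already sets OXA against non-treated tissue.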
